A study of Oryctolagus cuniculus with 8 samples.

Results

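ANKRD1, ANXA8, INMT and IGF1 are 4 rabbit genes whose RNA differed widely between cultured liver cells and cultured stomach cells, and they were followed here into the induced pluripotent stem (iPS) lines made from those cells. The genes were picked on that liver against stomach difference, so the difference itself is described and not tested. Their probes were found through the RefSeq accession that the array files give for each probe, which yielded 12 probes of 43603, for 4 of the 680 genes that could be named. ANKRD1 and IGF1 had 5 probes each, and ANXA8 and INMT had 1 each. All 12 probes passed the filter on dim probes, but those of IGF1 passed only because they were measured in liver and stomach cells.

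The 4 genes have unrelated roles. ANKRD1 encodes an ankyrin repeat protein of nucleus and sarcomere that binds titin and is a widely used target gene of the mechanosensitive coactivator YAP. ANXA8 encodes an annexin, a protein that binds phospholipid membranes when calcium is present. INMT encodes indolethylamine N-methyltransferase, which moves a methyl group from S-adenosylmethionine to amines such as tryptamine. IGF1 encodes a growth factor that the liver releases into the circulation under growth hormone and that mesenchymal cells also make locally.

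The study held 8 samples of Dutch rabbit cells, each on 1 single-colour Agilent array, and was set up to compare iPS cells at several passages with embryonic stem (ES) cells and with the somatic cells of origin. The liver iPS line (iPS-L1) was sampled at passages 23 and 7, and the stomach iPS line (iPS-S1) at passages 22 and 6. The ES group held the lines rdES4 and rdES2-1, and liver cells and stomach cells had 1 array each. Each tissue thus gave 1 iPS line, and the 2 arrays of a line are passages of the same line. Per the labels, iPS and ES cells grew in stem cell medium and liver and stomach cells in somatic cell medium, so that medium and cell type go together. Neither the factors used for reprogramming nor whether cultures or animals were separate is given in the labels. A p-value here speaks of how far these samples scatter, and some of that scatter may be technical. In bulk RNA, fewer cells that express a gene and less RNA per cell cannot be told apart.

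Between 62.4% and 64.7% of probes were well above background on the 6 iPS and ES arrays, against 57.8% in liver cells and 58.4% in stomach cells. The arrays lay on 3 slides, each scanned separately. The liver iPS arrays, the liver cells and rdES4 were on slide 1, the stomach cells and rdES2-1 on slide 2, and the stomach iPS arrays on slide 3. Slide and tissue of origin therefore cannot be told apart, either in the cells or in the iPS lines. Levels below are log2 signals relative to the 75th percentile of the array's probes, so that 0 is that percentile, and the probe with the highest mean level stands for a gene with several.

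ANKRD1 showed the widest difference between liver and stomach cells of all 532 named genes that were measured. Its level was 5.05 in liver cells and -4.22 in stomach cells, a log2 difference of 9.27 or 616-fold. On the linear scale the spot read 5427 in liver cells and 8.33 in stomach cells. The 5 probes gave log2 differences between 9.20 and 9.61. In stomach cells 2 of the 5 probes were well above background, so the gene was barely detected there. Those 2 probes put ANKRD1 616-fold and 586-fold higher in liver cells, and on the other 3 the fold is only a lower bound. The size depends on the background correction, since with normexp, which adds a fixed offset to every signal, the log2 difference was 6.29 in place of 9.27. Such a bound replaces a dim signal by the array's faintest signal that counted as well above background, unless the dim signal was the greater. It holds only for the background correction of the deposited signals, not for normexp.

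INMT and IGF1 were also higher in liver cells. INMT stood at -0.98 in liver cells and at -6.22 in stomach cells. The stomach value failed the background mark, so with the background correction of the deposited signals INMT was at least 12.8-fold higher in liver cells. With normexp its log2 difference was only 1.12. IGF1 stood at 0.92 in liver cells and -3.20 in stomach cells, a log2 difference of 4.13 or 17.5-fold, and its 5 probes gave between 4.13 and 4.53. Unlike INMT, IGF1 was well above background in stomach cells on all 5 probes.

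ANXA8 ran the other way. Its level was -1.07 in liver cells and 3.61 in stomach cells, so that it was 25.8-fold lower in liver cells (log2 difference -4.69). It was well above background on all 8 arrays. By size of the difference as measured, ANXA8 and IGF1 ranked 11 and 15 of the 532 named genes, and INMT, with only a bound, has no exact rank. Genes ranked above ANXA8 and IGF1, such as INMT and PODXL, rest on stomach cell signal that was not well above background. The ranks of ANXA8 and IGF1 are therefore not exact either. Of the 29895 tested probes, 6.36% were at least 2-fold higher and 6.22% at least 2-fold lower in liver cells, 12.6% in all. The 4 genes were chosen on this contrast, and nothing is read from their place in it.

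The ES lines give the spread between 2 arrays on the same pair of slides, since rdES4 shared slide 1 with the liver cells and rdES2-1 slide 2 with the stomach cells. The log2 difference between rdES4 and rdES2-1 was -0.19 for ANKRD1, 0.67 for INMT and 0.88 for ANXA8. Liver minus stomach cells had an SD of 0.867 over all tested probes, and rdES4 minus rdES2-1 had one of 0.51, on the log2 scale.

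**Figure D1:**
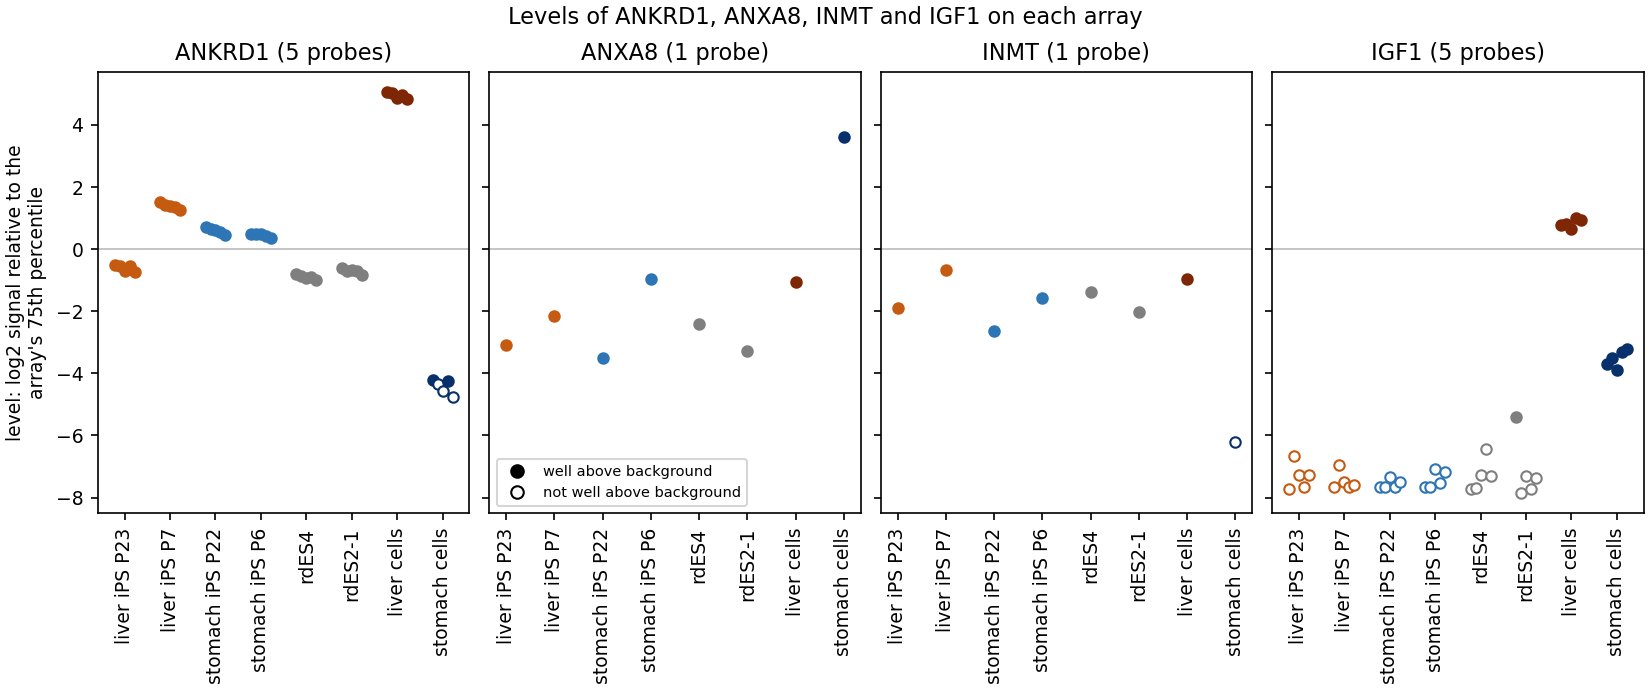
Level of each gene on each array (log2 signal relative to the array's 75th percentile), with 1 point per probe, filled where the probe was well above background. Liver and stomach cells lie far apart for every gene, with ANKRD1 at 5.05 and -4.22, while the iPS and ES arrays run from -0.79 to 1.51 for ANKRD1 and from -3.49 to -0.95 for ANXA8, and IGF1 is at background on them but for 1 probe in rdES2-1.

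The iPS lines were set against their own cells of origin to see what became of each gene. The question has 1 array per tissue and no test. ANKRD1 moved in opposite directions in the 2 lines and met between the levels of the cells. How near the middle depends on the background correction, since the gene was barely detected in stomach cells. With normexp the log2 difference was -4.14 for the liver iPS line against liver cells and 2.10 for the stomach iPS line against stomach cells. In the liver iPS line its mean level was 0.49 ± 1.44 (SD, n = 2 passages), against 5.05 in liver cells, which is 23.6-fold lower. In the stomach iPS line it was 0.61 ± 0.15 (SD, n = 2 passages), against -4.22 in stomach cells, which is 28.3-fold higher. All 4 iPS arrays lay between the liver cells and the stomach cells, and so did both ES arrays.

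INMT lay near its liver cell level in the liver iPS line and lower in the stomach iPS line. It averaged -1.28 ± 0.86 in the liver iPS line (SD, n = 2 passages), against -0.98 in liver cells. That log2 difference of -0.31 was smaller than the SD between passages, and without scaling between arrays it turned to 0.75. The stomach iPS line averaged -2.10 ± 0.75 (SD, n = 2 passages), at least 5.87-fold higher than stomach cells, where the gene was not measured above background. On these levels the stomach cells, not the iPS cells, stood apart for INMT, but by 1 array on which its 1 probe was not well above background. With normexp the stomach iPS line was only 0.39 log2 units above stomach cells, against 0.50 between the iPS lines.

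ANXA8 was the reverse case, with stomach cells high and all others low. The stomach iPS line averaged -2.22 ± 1.80 (SD, n = 2 passages), against 3.61 in stomach cells, and was thus 57.1-fold lower. The liver iPS line averaged -2.63 ± 0.66 (SD, n = 2 passages), against -1.07 in liver cells, and was 2.95-fold lower. The liver cells lay inside the span of the 6 iPS and ES arrays, which ran from -3.49 to -0.95.

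IGF1 was not well above background on any iPS array, on any of its 5 probes. It was at least 78.9-fold lower in the liver iPS line than in liver cells, with a range over the probes of 65.1-fold to 82.5-fold. It was at least 4.51-fold lower in the stomach iPS line than in stomach cells, with a range of 2.81-fold to 4.51-fold. On the ES arrays it was well above background once, by 1 probe in rdES2-1. IGF1 thus gives no value for any comparison among iPS and ES cells.

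Differences of at least 2-fold were common in these contrasts. They took in 49.2% of tested probes between the liver iPS line and liver cells, with 24.5% lower in the iPS line, and 52.1% between the stomach iPS line and stomach cells, with 25.7% higher in the iPS line. With normexp background correction the differences of dim genes shrank, some to below the lower bounds given above. For the stomach iPS line against stomach cells the differences were 2.10 for ANKRD1 in place of 4.82, 0.39 for INMT in place of 4.12 and -0.996 for IGF1 in place of -4.14, on the log2 scale. For the liver iPS line against liver cells IGF1 gave -3.34 in place of -8.36. For liver cells against stomach cells they were 1.12 for INMT in place of 5.24, and 2.15 for IGF1 in place of 4.13.

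Whether the iPS lines kept the difference of their tissues was tested between the liver iPS line and the stomach iPS line. None of the 3 genes measured in iPS cells passed. ANKRD1 had levels of -0.53 and 1.51 in the liver iPS line at passages 23 and 7, and of 0.71 and 0.50 in the stomach iPS line at passages 22 and 6. The liver line thus lay on both sides of the stomach line. The log2 difference was -0.12 ± 0.66 (SE, adjusted p = 0.989 by limma), with a 95% interval of -1.83 to 1.59.

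ANXA8, the gene that was higher in stomach cells, had levels of -3.10 and -2.17 in the liver iPS line at passages 23 and 7. In the stomach iPS line its levels were -3.49 and -0.95 at passages 22 and 6. The stomach line held both the highest and the lowest value, and the lines overlapped. The log2 difference was -0.41 ± 0.91 (SE, adjusted p = 0.972 by limma), with a 95% interval of -2.77 to 1.94.

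INMT was the only one of the 3 whose iPS lines differed in the direction of their tissues at both passages. Its levels were -1.89 and -0.68 in the liver iPS line at passages 23 and 7, and -2.63 and -1.57 in the stomach iPS line at passages 22 and 6. The liver line was 1.67-fold higher late and 1.85-fold higher early, but its late value lay below the early value of the stomach line. The log2 difference of 0.81 ± 0.56 (SE, adjusted p = 0.901 by limma) did not pass, and its 95% interval ran from -0.64 to 2.27. That fit did not pair the passages, so change with passage entered its spread. With passage stage as a block, limma gave an unadjusted p of 0.0367 and an adjusted p of 0.543, which did not pass either. The log2 difference was 0.21 without the early liver array and 0.29 without the late stomach array. It was 1.34 without the early stomach array and 1.42 without the late liver array. Each of these leaves the passages unbalanced between the lines, so change with passage enters the difference. The difference between rdES4 and rdES2-1 was 0.67. Of all tested probes, 4.42% differed at least 2-fold between the lines late and 6.37% early, and INMT did so at neither stage, while ANXA8 did early. ANKRD1 did late on all 5 probes and early on 1 of 5, the others giving a log2 difference of 0.90 to 0.95.

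Calls between the lines were nearly absent in general. A single probe of 29895, or 0.00335%, passed between the liver and stomach iPS lines, while 1821 had an unadjusted p under 0.05. The probe, A_04_P013316, has no gene name here and was singled out after its values were seen. Its levels were -2.60 and -2.70 in the liver iPS line, and it was not well above background in the stomach iPS line, nor close to the liver line in liver cells (-6.77). Tested on simulated data with the spread of these arrays, the same fit called 0% of 200 probes changed by 1 log2 unit and 78.5% of those changed by 2 log2 units, so a 2-fold difference could not be detected by it. The 200 probes were drawn at random, each with the spread that limma gave it in this fit, which is drawn toward a common value. The shares need not hold for ANKRD1, ANXA8 and INMT, whose SEs in this fit were 0.66, 0.91 and 0.56.

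**Figure D2:**
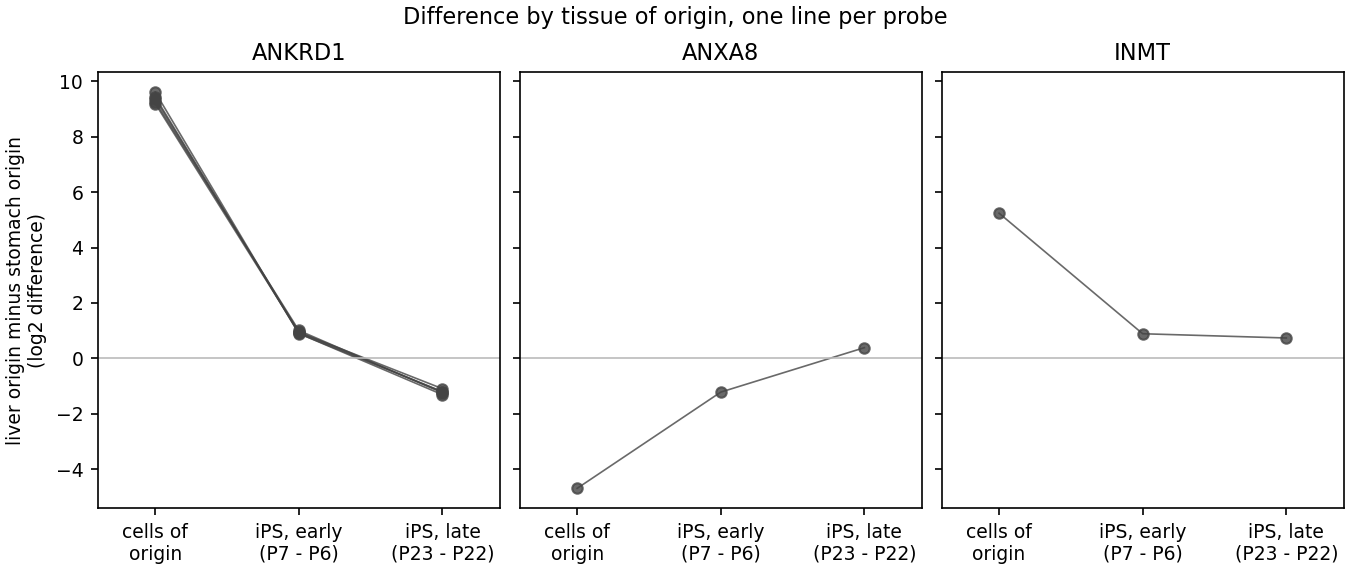
Log2 difference between liver and stomach origin in the cells of origin and in the iPS lines at early and at late passage, with 1 line per probe. The ANKRD1 probes start between 9.20 and 9.61 and change sign between passages, ANXA8 starts at -4.69 and ends at 0.39, and INMT stays above 0, its value in stomach cells being not well above background.

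Passage was compared within the lines, late against early. INMT had lower values late in both lines, with -1.89 against -0.68 in the liver line and -2.63 against -1.57 in the stomach line. The log2 difference, with line in the model, was -1.13 ± 0.26 (SE, unadjusted p = 0.0127, adjusted p = 0.346 by limma). It was negative in 2 of 2 lines but did not pass.

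ANXA8 likewise had lower values late in both lines. The log2 difference was -0.94 in the liver line and -2.54 in the stomach line, and the fit gave -1.74 ± 0.52 (SE, unadjusted p = 0.029, adjusted p = 0.396 by limma). It did not pass either. At early passage ANXA8 had differed between the lines in the direction of the tissues, with the liver line 2.32-fold lower, and at late passage the liver line was 1.31-fold higher.

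ANKRD1 did not move together in the 2 lines. The level in the liver line was -0.53 at passage 23 and 1.51 at passage 7, a log2 difference of -2.03, and the 5 probes gave between -2.07 and -1.92. The level in the stomach line was 0.71 at passage 22 and 0.50 at passage 6, a log2 difference of 0.22, with 0.11 to 0.22 over the 5 probes. Over all tested probes the median size of that difference in the stomach line was 0.196, so ANKRD1 there moved about as much as a typical probe. The liver line was therefore 2.01-fold higher than the stomach line early and 2.36-fold lower late. The common difference of -0.91 ± 0.58 (SE, adjusted p = 0.592 by limma) did not pass, and it was -2.03 without either one of the stomach line's arrays and 0.22 without either one of the liver line's.

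Between late and early passage 6.75% of tested probes differed at least 2-fold in the liver line, 3.75% being lower late, and 6.58% in the stomach line, 3.6% being lower late. ANKRD1 and INMT were past it in the liver line, and ANXA8 and INMT in the stomach line. No probe passed the test of late against early, at 0% of 29895, with 3533 at an unadjusted p under 0.05, and with normexp 163 probes passed. The self-test of that fit recovered 65% of randomly drawn probes changed by 2 log2 units. It was simulated with the spread from the fit between the iPS lines.

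ES cells have no tissue of origin among the somatic cells, and they were used to place the iPS levels. ANKRD1 was higher in iPS cells than in ES cells, but not past the threshold. The mean level was 0.55 ± 0.082 in iPS lines and -0.69 ± 0.14 in ES lines (SD, n = 2 lines each, passages averaged). In this comparison the spread between passages of a line enters neither the SDs nor the SE. For ANKRD1 in the liver line that spread was 1.44 (SD, n = 2 passages), wider than the difference between iPS and ES cells. On the representative probe all 4 iPS arrays lay above both ES arrays, though the late liver array, at -0.53, came close to rdES2-1 at -0.59. On another probe of the gene the late liver array, at -0.690, lay just below rdES2-1, at -0.686. The log2 difference was 1.24 ± 0.14 (SE, unadjusted p = 0.000748, adjusted p = 0.351 by limma), and it passed with normexp (1.05, adjusted p = 0.0056). Over all alternatives run the adjusted p ran from 0.0056 to 0.977, the highest with the somatic cells added to the fit, and with slide as a block it was 0.72. The log2 difference was 0.73 without the early liver array and 1.75 without the late one.

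INMT and ANXA8 differed little between iPS and ES lines. INMT averaged -1.69 ± 0.58 in iPS lines and -1.70 ± 0.47 in ES lines (SD, n = 2 lines each), a log2 difference of 0.013 ± 0.38 (SE, adjusted p = 0.993 by limma, 95% interval -1.05 to 1.07). ANXA8 averaged -2.43 ± 0.29 in iPS lines and -2.85 ± 0.62 in ES lines (SD, n = 2 lines each), a log2 difference of 0.43 ± 0.36 (SE, adjusted p = 0.691 by limma, 95% interval -0.56 to 1.41). For both genes the iPS arrays spanned the ES arrays. No probe passed between iPS and ES cells, at 0% of 29895, with 3090 at an unadjusted p under 0.05 and 74 called with normexp.

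Set in order of level, the genes fell into 3 patterns. For ANKRD1 the order was liver cells, then the 6 iPS and ES arrays, then stomach cells, with gaps of 3.54 above and 3.43 below the pluripotent arrays. The lower gap rests on a stomach cell signal near background, so its size depends on the background correction. For INMT the liver cells fell among the iPS and ES arrays, which spanned -2.63 to -0.68 and do not differ beyond their spread. Stomach cells lay below all of them, at a signal not well above background. For ANXA8 and IGF1 the pluripotent arrays were at the low end, together with liver cells for ANXA8 and alone for IGF1.

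**Figure D3:**
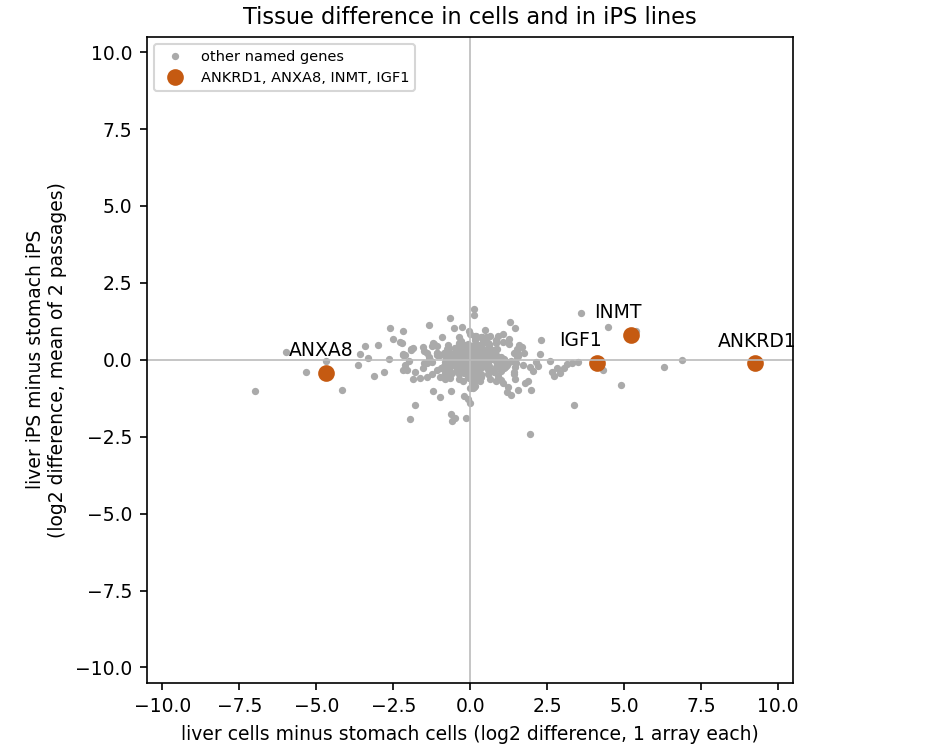
Log2 difference between liver and stomach cells (x axis, 1 array each) against that between the liver and stomach iPS lines (y axis, mean of 2 passages) for the representative probe of each of the 532 named genes. The 4 genes, chosen for their place on x, run from -4.69 to 9.27 along it and from -0.41 to 0.81 along y, where the point of IGF1 and the stomach value of INMT rest on signal that was not well above background.

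Few other genes of the same pathways could be named on these arrays. Of the other 23 listed genes of the IGF axis, only GHR, the growth hormone receptor through which growth hormone induces IGF1, had a named probe. Its level was 1.29 in liver cells and 1.40 in stomach cells, a log2 difference of -0.11, so GHR did not share the difference of IGF1. In iPS and ES cells GHR lay between -2.11 and -0.99.

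Among annexins and their S100 partners, 3 genes besides ANXA8 were tested. S100A10, which binds annexin A2, was 2.11-fold lower in liver cells, and S100A11, which binds annexin A1, and ANXA11 differed by -0.52 and -0.25 on the log2 scale. The 3 ran in the direction of ANXA8 but with far smaller differences. ANXA13 stayed below the background mark on all 8 arrays.

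Of the YAP targets and partners of ANKRD1, the tissue factor gene F3 and the calsequestrin gene CASQ2 were tested, and neither reached 2-fold between liver and stomach cells, with log2 differences of 0.27 and 0.41. Of the methyltransferase and amine list, TPMT, which methylates thiopurines, differed by 0.07, and TPH1, the tryptophan hydroxylase of peripheral serotonin synthesis, stayed below that mark on all 8 arrays. In these 4 lists, 0 of the 7 tested genes other than the 4 chosen ones passed between the iPS lines, late against early or between iPS and ES cells. Over all 29895 tested probes these tests called 0.00335%, 0% and 0%, so the count says nothing particular to these lists.

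The named genes whose profile over the 8 arrays was most like each chosen gene were found by Pearson correlation among 514 other genes well above background on at least 2 arrays. The arrays share slides and cell lines, so the correlations are descriptions. For ANKRD1 they were HBB2, a haemoglobin beta subunit (r = 0.904), FMO1, a flavin monooxygenase (r = 0.904), and GYG1, the glycogen primer glycogenin (r = 0.896). HBB2 and FMO1 had levels of -1.27 and -1.95 in liver cells, above the mean of either iPS line and of the ES lines. In stomach cells both read below -4.65, the faintest level there that counted as well above background, so their likeness to ANKRD1 rests partly on signal at background. For INMT they were PLB1, a phospholipase (r = 0.914), GNB5, a G protein beta subunit (r = 0.914), and ENO3, muscle enolase (r = 0.863). INMT itself was not well above background in stomach cells, so these correlations too rest partly on signal at background.

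For ANXA8 they were RBP4, the plasma retinol carrier (r = 0.928), PTHLH, the parathyroid hormone-related protein (r = 0.92), and TNNI2, a troponin I of fast skeletal muscle (r = 0.914). RBP4 stood at 1.89 in liver cells and 3.75 in stomach cells, and below 0 on average in both iPS lines. For IGF1 they were ALDH1A1, an enzyme of retinoic acid synthesis (r = 0.9997), NR1H4, the bile acid receptor FXR (r = 0.996), and TNFSF13, a cytokine of the TNF family (r = 0.991). ALDH1A1 and NR1H4 were well above background only in liver and stomach cells. Their correlations with IGF1 thus rest on 2 arrays set against 6 dim ones.

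The tissue names of the somatic cells were checked against marker genes. Hepatocyte genes did not mark out the liver cells, on the 7 of 16 listed ones that had a named probe. Of these, 5 were well above background in liver cells and 5 in stomach cells. The highest in liver cells was RBP4, at 1.89, against 3.75 in stomach cells. ALB, serum albumin, and APOA1, an apolipoprotein, were not well above background in liver or stomach cells. Both had 1 probe, below that mark on all 8 arrays, so whether these probes work is not known here. Of 5 hepatocyte genes that were tested, 4 were at least 2-fold lower in liver cells than in stomach cells and 1, the iron carrier TF, was higher (log2 difference 1.20). HP, haptoglobin, stood at -2.53 in liver cells and 2.16 in stomach cells. The summed linear level of the 7 named hepatocyte genes, in units of the 75th percentile, was 4.65 in liver cells, 20 in stomach cells and between 3.43 and 4.05 on the iPS arrays.

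Gastric markers did not set the stomach cells apart either. Of 4 named gastric genes, 2 were well above background in liver cells and 3 in stomach cells. PGC, a pepsinogen gene, had levels of -3.95 in liver cells and -4.08 in stomach cells, and ATP4B, of the acid pump, was not well above background in either. ATP4A, of the same pump, was well above background in stomach cells, at -4.40, but not in liver cells, at -4.66. Its log2 difference was -0.26. CTSE, an aspartic protease of gastric mucosa, was higher in liver cells, at 2.45 against 0.32 in stomach cells. The summed level was 5.64 in liver cells, 1.37 in stomach cells and between 0.141 and 0.201 on the iPS arrays.

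Fibroblast genes and some smooth muscle genes were high in both cultures. The 4 fibroblast genes DCN, MGP, MMP2 and CAV1 were well above background in both, with a summed level of 198 in liver cells, 106 in stomach cells and between 2.08 and 3.14 on the iPS arrays. Of 5 smooth muscle genes, 5 were well above background in liver cells and 4 in stomach cells, and the sum was 253 in liver cells, 98.0 in stomach cells and between 30.7 and 49.3 on the iPS arrays. ACTA2, smooth muscle actin, had levels of 7.02 in liver cells and 5.13 in stomach cells, and CALD1 and TPM1 were also high. TPM2, a tropomyosin, was at -1.17 in liver cells and -2.25 in stomach cells, and MYH11, smooth muscle myosin, was at -3.36 in liver cells and not well above background in stomach cells. The monocyte marker CD14 was 1.08 log2 units higher in liver cells, with a summed level of its list, which it made up alone, of 1.11 in liver cells and 0.524 in stomach cells. No marker of mesothelium or endothelium had a named probe. The part of these markers in the differences of ANKRD1, ANXA8, INMT and IGF1 was not tested.

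The pluripotency genes checked the iPS and ES labels. POU5F1, which encodes Oct4, had levels between 6.69 and 7.62 on the 6 iPS and ES arrays, against -3.63 in liver cells and -3.46 in stomach cells. PODXL, a sialomucin of pluripotent cells, had levels of at least 7.29 on the iPS and ES arrays, 2.34 in liver cells and -4.54 in stomach cells. Its signal in stomach cells was not well above background. PODXL was thus higher in liver than in stomach cells, as ANKRD1, INMT and IGF1 were, while POU5F1 was near the same low level in both.

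**Figure D4:**
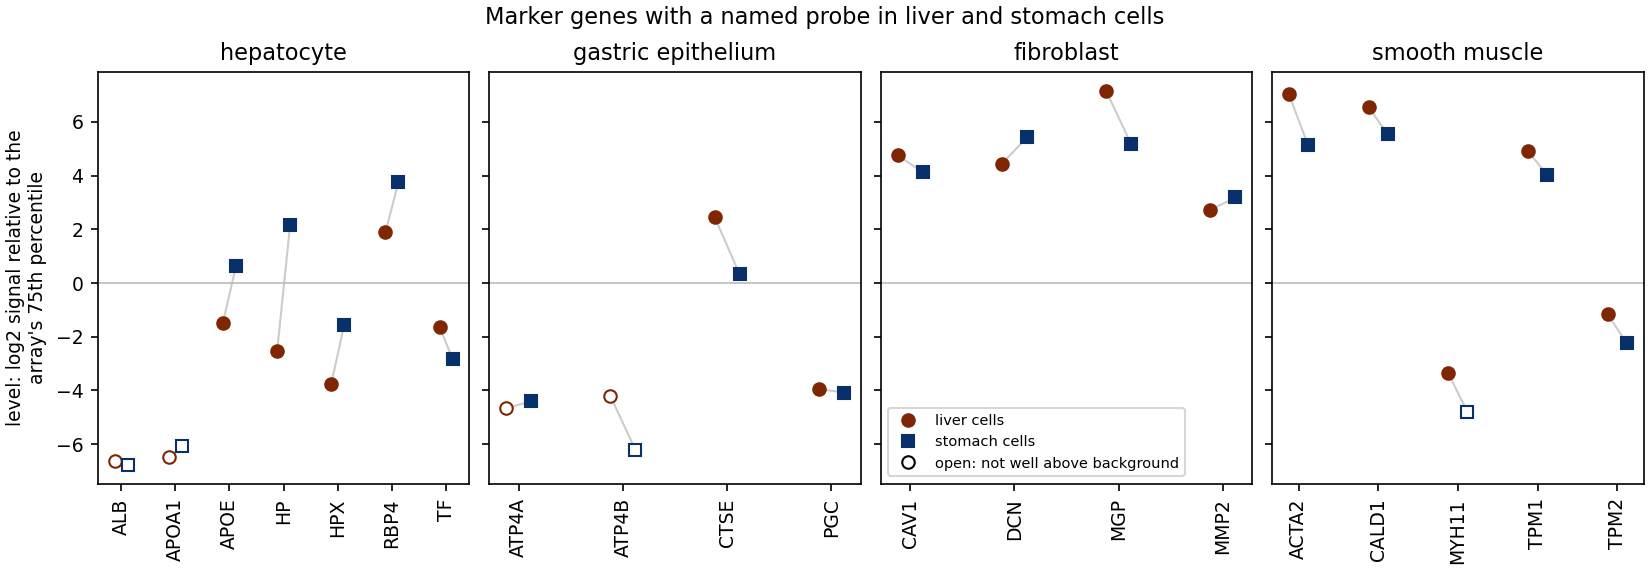
Level (log2 signal relative to the array's 75th percentile) in liver cells (circles) and stomach cells (squares) of the marker genes that had a named probe, open where not well above background. ACTA2, CALD1 and TPM1 are high in both cultures and MYH11 and TPM2 low, ALB and APOA1 are at background in both, and HP is at -2.53 in liver cells and 2.16 in stomach cells.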

How the data were processed

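Per the file headers, the deposited intensities were written by Agilent Feature Extraction 10.5.1.1. Local background and spatial trends were removed within each array, and the software marked spots as well above background, saturated or uneven, without scaling between arrays. The deposited marks are other values of 0 or 1 per spot. The authors' series table of log2 values was matched to log2 signals over the array's 75th percentile, centred on each probe's median, with correlations of at least 0.999999, so its scale, centring and direction were settled. It served as an alternative.

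Here, log2 processed signal minus the array's 75th percentile was averaged over spots of a probe. A total of 38 probes with a marked spot were left out, and no spot was saturated. Probes well above background on every array of at least 1 group (liver iPS, stomach iPS, ES, liver cells, stomach cells) were tested. Symbols came from a RefSeq table of assembly mOryCun1.1, used for names only, matched without versions, for 1933 of 43603 probes.

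Fits used limma 3.58.1 in R 4.3.3, and its p-values, two-sided, were adjusted by Benjamini-Hochberg across 29895 probes and called under 0.05. Liver against stomach iPS used all 8 arrays in 5 groups (3 residual degrees of freedom), so the spread came from passages and ES lines, and late against early added passage to it. iPS against ES used 2 lines each, passages averaged, without the somatic cells, whose difference would enter the spread. The fits were tested on simulated data. The 4 genes and the lists were chosen with earlier results of these data known. Genes named were these 4, the 3 most correlated named genes of each, and up to 4 measured members per list, by mean level. Markers and probes named beyond that were chosen after their values were seen. The number of arrays limits precision. Alternatives were other background correction, scaling, filters, probes, blocks and samples. As the files hold no mean signal, normexp used the median signal.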

Additional observations from a re-analysis of the deposited data

Results flagged for a closer look

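The ANKRD1 values of late against early passage differed in sign between the iPS lines. The log2 difference of late against early was -2.03 in the liver line and 0.22 in the stomach line, and the 5 probes had the same signs. In the stomach line the size is about that of a typical probe (median 0.196). Each rests on 1 array per passage, and the difference between the lines was not tested.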

How the results depend on the processing

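With normexp, 740 probes were past 2-fold between liver and stomach cells in place of 3761, 8801 in place of 14697 between the liver iPS line and liver cells, and 8361 in place of 15568 between the stomach iPS line and stomach cells. Without the filter on dim probes the first count was 5693. With only probes well above background on all 8 arrays, an alternative chosen after seeing the data, the counts were 1145, 9332 and 10035, since fewer probes entered. No sign of the 4 genes between liver and stomach cells changed under any alternative run. Normexp called 0 probes between the iPS lines in place of 1, 163 late against early and 74 between iPS and ES. Without scaling, 3 and 11 probes were called in the 2 comparisons just named, and with probes above background on all arrays 0 between the lines and 1 late against early. The fit of only the 4 iPS arrays called 0. Passage stage as a replicate block also called 0 between the lines. The replicate numbers follow accession order and so pair nothing by themselves. Late minus early correlated at 0.366 between the lines over 29895 probes, a hint from the data only. Leaving out 1 array at a time called between 0 and 0 probes in each of the 3 tests. The cause was not tested.

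Several signs turned, none of them of a difference that had passed a test. Between the iPS lines, ANKRD1 (-0.12) was 0.052 with normexp, 0.064 without scaling and between -1.13 and 0.90 with 1 array left out, and ANXA8 between -1.68 and 0.86, while INMT stayed between 0.21 and 1.42. Late against early, ANKRD1 (-0.91) ran from -2.03 to 0.22. Between iPS and ES, ANXA8 (0.43) was -0.22 with slide as a block, where the value rests on slide 1, and between -0.21 and 1.06 with 1 array left out, and INMT (0.013) between -0.32 and 0.35, while ANKRD1 stayed between 0.73 and 1.75. The liver iPS line against liver cells gave 0.75 for INMT without scaling, where the median of all tested probes shifted from -0.05 to 1.01. The slide block could not be fitted between the iPS lines, since each lay on a slide without the other. The tests rest on 2 or 3 residual degrees of freedom, and signals near background limit IGF1 in iPS and ES cells and INMT in stomach cells.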
